A study of Mus musculus with 4 samples.

Results

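The genes of oxidative phosphorylation were followed in T cells from mice with graft-versus-host disease (GVHD). Members were chosen by name, as symbols that start with Nduf, Uqcr, Atp5, Cox4i, Cox5, Cox6, Cox7, Cox8, mt-Nd, mt-Co, mt-Atp or mt-Cytb, together with Sdha to Sdhd and without names marked as pseudogenes. This gave 106 of the 31053 annotated features, with 105 symbols because Atp5o is listed under 2 identifiers. Of the 106, 83 are nuclear features for subunits of the 5 complexes, 13 are the protein genes of the mitochondrial genome, and 10 (Ndufaf1 to Ndufaf8, Cox7a2l and Atp5s) are assembly factors or relatives and are counted apart.

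Oxidative phosphorylation passes electrons from NADH and succinate through complexes I to IV of the inner mitochondrial membrane and uses the proton gradient so made to drive ATP synthase, complex V. Every complex other than complex II is built from proteins of both genomes, so that nuclear genes transcribed in the nucleus and polycistronic transcripts made inside the organelle must both supply parts. In T cells, resting and memory cells are known for reliance on this pathway, while activated effector cells also run glycolysis at a high rate.

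The cells were TS1 Tg CD4 T cells of the strain labelled BALB/c RAG2-/- TS1 Tg, sorted 4 weeks post-transplantation from GVHD mice. Each of 2 libraries (replicates 1 and 2) pooled cells of 5 compartments, namely spleen, skin, colon, and the lamina propria and intraepithelial fractions of the small intestine. All cells share the strain, the transgene and the disease, and there was no healthy or untransplanted group. Since hashtag counts were not analysed here, no cell carries a tissue, and the comparisons are between classes of cells within each pool. Nothing in the labels ties the replicates to different animals, and the spread between them may be technical.

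The deposited matrices held 89427990 and 108082997 unique molecular identifiers (UMIs, counted transcript molecules) in replicates 1 and 2. Cells with at least 1000 UMIs, at least 500 genes and at most 10% of UMIs in mitochondrial genes numbered 19020 and 15898, with median depths of 2688 and 3699 UMIs. Cd3e, a chain of the T cell receptor complex, was detected in 93.1% and 91.6% of the cells used below, and Cd4 itself in 24.4% and 26.8%. Markers of other cell types reached at least 5 UMIs in 2.14% and 1.92% of those cells. The libraries shared 599 kept barcodes, against 44.5 if their barcodes were independent, and the median depth behind these barcodes was 15782 UMIs in replicate 1 and 1726 UMIs in replicate 2. Results without them are given below where they moved.

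The mitochondrial limit needs a further remark, because the mitochondrial genes it counts are the 13 members themselves. It removed 604 and 1764 cells in replicates 1 and 2. Just inside it, at 9 to 10%, lay 184 and 270 cells, and just outside it, at 10 to 11%, lay 127 and 250 cells. Every mitochondrial comparison is therefore also given without the limit where that moved it.

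Of the 83 nuclear subunit features, 79 had a UMI in both libraries. Together they took 2.46% and 2.40% of the UMIs of kept cells in replicates 1 and 2, and the 13 mitochondrial genes took 2.95% and 2.89%. Because the 3′ chemistry counts each captured molecule once, levels in CPM, the gene's UMIs scaled to a common library total, were not divided by gene length. In barcodes of under 100 UMIs, which hold free RNA, nuclear members stood at 2.25% and 2.14% and mitochondrial genes at 7.28% and 8.13%. Free RNA thus carried a higher mitochondrial share than cells did, while its nuclear share was close to that of cells.

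**Figure D1:**
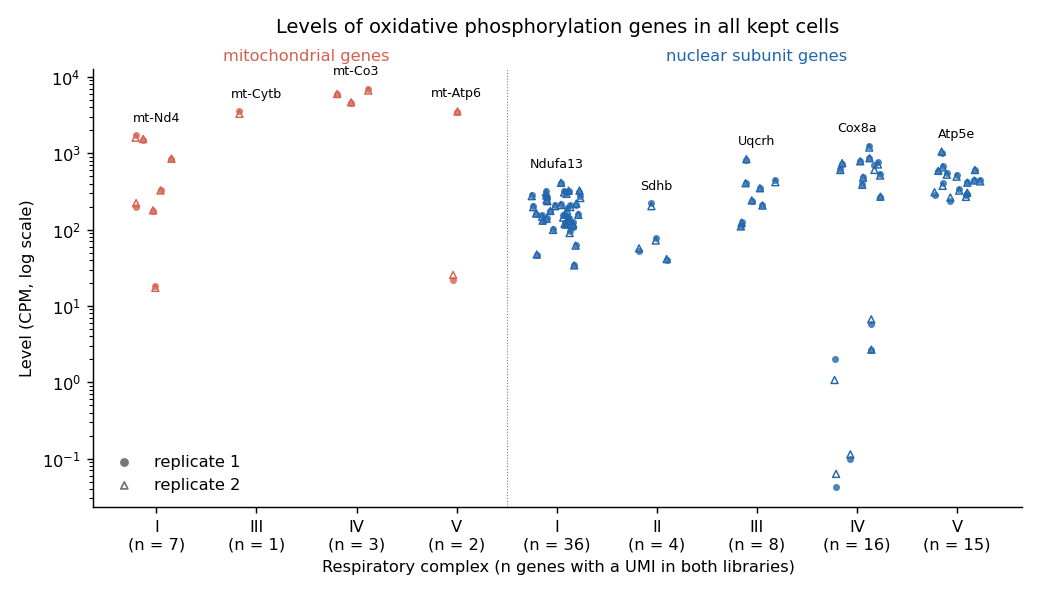
Level of each member with a UMI in both libraries (CPM in all kept cells, log axis), by complex and genome; circles are replicate 1, triangles replicate 2, and the gene of highest level in each column is named. The mitochondrial genes run from mt-Nd6 at 18.4 and 17.3 to mt-Co3 at 6927 and 6653, and 5 nuclear genes of complex IV lie far below the rest.

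Complex IV, cytochrome c oxidase, held the most abundant members of both genomes. Its mitochondrial catalytic-core genes mt-Co3, mt-Co1 and mt-Co2 stood at 6927, 6057 and 4600 CPM in replicate 1 and at 6653, 5995 and 4657 in replicate 2. Among nuclear members Cox8a, a small structural subunit of complex IV, was highest, at 1250 and 1190 CPM. Atp5e, the epsilon subunit of ATP synthase, followed at 1018 and 1053, then Cox4i1, a regulatory subunit of complex IV, at 878 and 862, and Uqcrh, the hinge protein of complex III, at 825 and 837. Neighbours in this order were further apart than their values in the 2 libraries.

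Complex I had 36 nuclear subunit genes, at unequal levels. Its highest nuclear subunit was Ndufa13 at 412 and 411 CPM, followed by Ndufa2 at 321 and 323, and its lowest was the core iron-sulfur subunit Ndufs1 at 34.1 and 34.0. Complex II, succinate dehydrogenase, has no mitochondrial gene and was the least abundant complex, with Sdhb, the iron-sulfur subunit, at 226 and 203 and Sdhd, a membrane anchor, at 76.6 and 72.1. In complex III, Uqcrb, a ubiquinone-binding subunit, reached 451 and 419, and in ATP synthase the membrane subunit Atp5l reached 678 and 654.

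Second isoforms known mainly from other tissues were nearly absent. Cox7b2, Cox8b, Cox8c and the second Atp5o identifier had 0 UMIs in both libraries. Ndufa4l2, known for induction in hypoxia, had 3 and 5 UMIs in all kept cells, and Cox4i2, a lung isoform, had 7 and 9. Cox6a2, of heart and muscle, had 146 and 85 UMIs, Cox6b2, of testis, 189 and 212, and Cox7a1, of heart and muscle, 421 and 529. The matching common isoforms Cox4i1, Cox6b1 and Cox8a stood at 878, 496 and 1250 CPM in replicate 1 and at 862, 479 and 1190 CPM in replicate 2.

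Several mitochondrial genes overlap by a few bases, and reads in bases shared on the same strand cannot be assigned to 1 gene. On chromosome M of mm10, mt-Atp8 (7766 to 7969) and mt-Atp6 (7927 to 8607) share 43 bases, and mt-Nd4l (9877 to 10173) and mt-Nd4 (10167 to 11544) share 7 bases, all on the plus strand. Nearby, mt-Nd6 (13552 to 14070), which alone among the 13 lies on the minus strand, shares 14 bases with mt-Nd5 (11742 to 13565). The lowest levels of the mitochondrial set were those of mt-Atp8, at 21.9 and 25.5 CPM, and mt-Nd6, at 18.4 and 17.3.

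To compare classes at equal depth, each cell was thinned at random to 1500 UMIs, which left 15288 and 14855 cells and set aside 3732 and 1043 shallower ones. Single cells varied more in mitochondrial than in nuclear share. The median nuclear share was 2.20% and 2.13%, with the 5th and 95th percentiles at 1.40% and 3.40% in replicate 1 and at 1.33% and 3.27% in replicate 2. For the mitochondrial share the median was 2.67% and 2.53%, with percentiles at 1.13% and 6.67% in replicate 1 and at 1.13% and 6.69% in replicate 2.

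Cells were then split in 5 ways, by UMIs of genes that are not members. The classes were cells with both Itgae and Cd8a, cells with Tcf7, cells with at least 2 UMIs over 24 cell cycle genes (cycling cells), cells with Il13 or Csf2, and cells with Hspa1a. At full depth more cells met these rules. Of all kept cells in replicates 1 and 2, shallower ones included, 24.5% and 29.2% then had Itgae and Cd8a. For Tcf7 these were 10.6% and 13.3%, for cycling 45.6% and 49.6%, and for Il13 or Csf2 16.4% and 18.4%. Other cells can thus include cells that met a rule before thinning. Each class was compared with all other cells of the same library on summed counts, with edgeR's quasi-likelihood test, library as a block and Benjamini-Hochberg adjustment over all genes tested. A gene was called at an adjusted p under 0.05. Shares of summed UMIs are given per library with no test, since an exact sign-flip test on 2 pairs cannot give a p below 0.5. The widest exact binomial 95% interval on any of the 20 sums was 3.48% to 3.54% for the mitochondrial share and 2.15% to 2.20% for the nuclear share, which covers counting error only.

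**Figure D2:**
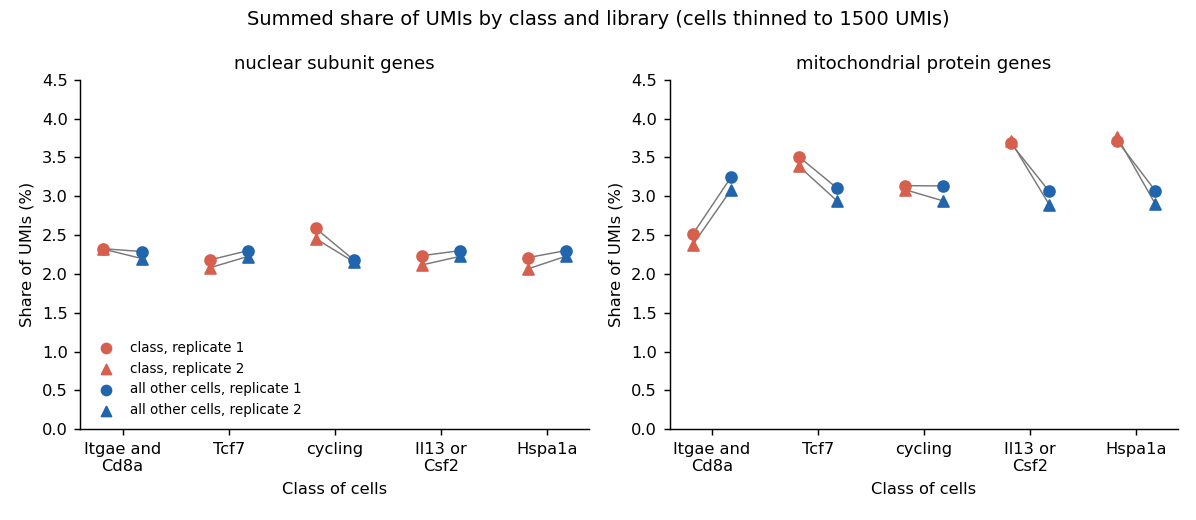
Share of UMIs (%) in nuclear subunit genes (left) and mitochondrial protein genes (right) for each class (red) and all other cells of the same library (blue); circles are replicate 1, triangles replicate 2, and lines join sums of 1 library. Cells with Itgae and Cd8a lie below other cells in mitochondrial share in both libraries, cells with Tcf7, Il13 or Csf2, or Hspa1a lie above them, and cycling cells lie above them in nuclear share.

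Cells with Itgae and Cd8a had a lower mitochondrial share and a nearly equal nuclear share. Itgae encodes the integrin chain that binds E-cadherin on epithelium, and Cd8a encodes a CD8 chain found as a homodimer on intestinal intraepithelial lymphocytes. The class held 2312 and 2295 cells, or 15.1% (14.6% to 15.7%, exact binomial 95% interval) and 15.4% (14.87% to 16.04%), against 10.8% (5.71% to 18.1%) and 7.45% (3.91% to 12.7%) of cells with neutrophil markers, a lineage that should lack both genes. Those cells are an imperfect background, since 64.0% and 57.1% of them also had Cd3e, and in replicate 1 their interval includes the share of all cells in the class. Mitochondrial genes took 2.51% and 2.37% of UMIs in the class, against 3.24% and 3.08% in other cells of replicates 1 and 2. The nuclear share was 2.32% in the class in both libraries, against 2.29% and 2.20% in other cells.

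All 13 mitochondrial genes fell in this class, where 30.8% of the 11274 genes tested were called in either direction and 16.8% lower, and their median log2 fold change was -0.36 against -0.01 over all genes. Among the best counted, mt-Co1, the catalytic subunit of complex IV, stood at 5326 and 5156 CPM in the class, against 6797 and 6512 in other cells (log2 fold change -0.32, SE 0.03, adjusted p = 4.82e-08). The deepest well-counted falls were in complex I: mt-Nd1 stood at 1079 and 1108 in the class, against 1627 and 1626 in other cells (log2 fold change -0.55, SE 0.04, adjusted p = 2.86e-10). For mt-Nd5 the levels were 257 and 234 in the class, against 373 and 368 in other cells (log2 fold change -0.57, SE 0.05, adjusted p = 2.33e-08). In each of these genes both class values lay below both values of other cells.

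Nuclear subunits in the same cells were called in both directions, more often higher than lower. Of 76 tested, 17 rose and 2 fell, where 14% of all genes were called higher, and their median log2 fold change was 0.05. Of the 17 that rose, 11 belong to complex I, 4 to complex IV and 2 to complex III, and none to complexes II or V. Without thinning 48 of 77 rose and 1 fell, with a median of 0.14. Of all 13365 genes tested in that setting, 3496 were called higher and 3785 lower. Ndufa6, an accessory subunit of complex I, had 249 and 261 CPM in the class, against 201 and 205 in other cells (log2 fold change 0.35, SE 0.05, adjusted p = 1.69e-05). Cox8a had 1373 and 1280 in the class, against 1139 and 1088 in other cells (log2 fold change 0.27, SE 0.04, adjusted p = 1.13e-05). Among subunits of at least 50 CPM, the other large rises were in the complex I accessory subunits Ndufa10 (0.34), Ndufb3 (0.30) and Ndufa3 (0.30), as log2 fold changes. The largest called rise of all was at a few CPM, in the second isoform Cox7a1, with 5.49 and 5.83 CPM in the class, against 3.44 and 3.03 in other cells (log2 fold change 0.83, SE 0.30, adjusted p = 0.0381), and rested on 19 and 20 UMIs in the class. The falls were Atp5g1 (-0.17), which encodes the c subunit of the ATP synthase rotor, and Ndufa4 (-0.15), now assigned to complex IV, and of the assembly group Ndufaf4 fell while Ndufaf1, Ndufaf3 and Cox7a2l rose.

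Glycolysis genes fell in these cells as well: 13 of 18 tested were lower and 1, Pfkp, was higher, with a median log2 fold change of -0.55. Of 82 cytosolic ribosomal protein genes, 68 fell and 1 rose. Neutrophil marker genes took 0.0806% and 0.0496% of UMIs in the class, against 0.179% and 0.307% in other cells, and the median depth before thinning was 3615 and 4377 UMIs in the class, against 3050 and 3733 in other cells; their part in the result was not tested. Without cells that carry another cell type's markers the mean log2 ratio of mitochondrial shares was -0.38, and it was -0.37 with them. Among cells of at least 3000 UMIs the log2 ratio of nuclear shares was -0.02 and 0.04 in replicates 1 and 2, with 11 nuclear subunits called higher and 7 lower, so the small nuclear difference did not hold there. Of all 10557 genes tested among those cells, 1435 were called higher and 1795 lower.

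**Figure D3:**
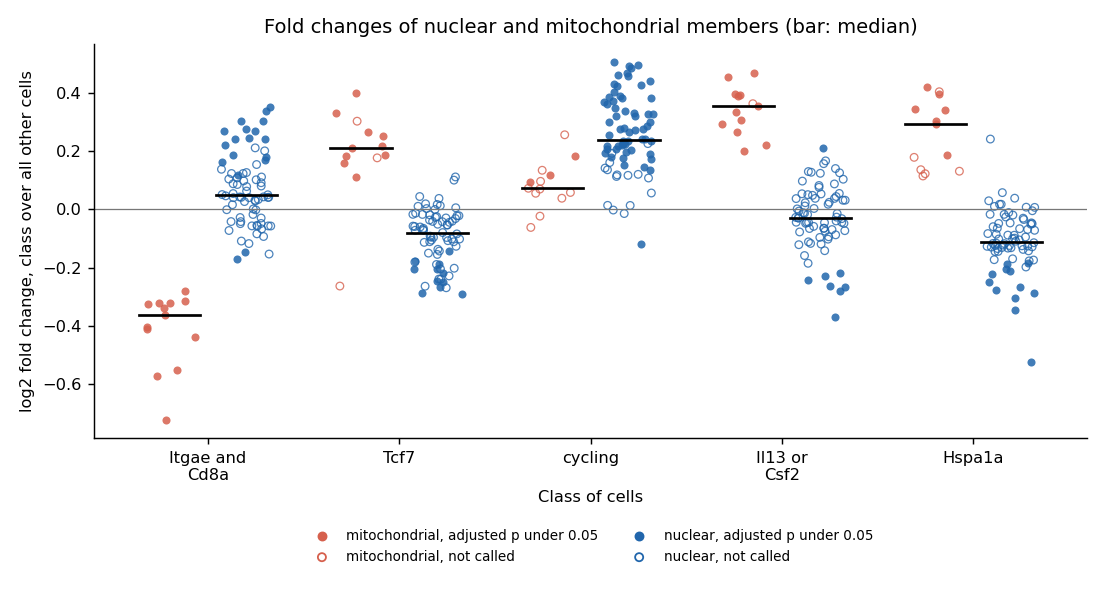
Log2 fold change, class over all other cells, of every nuclear (blue) and mitochondrial (red) subunit gene that was tested and had at least 10 CPM in other cells; filled points have an adjusted p under 0.05 and black bars are medians of the points shown. Mitochondrial genes lie below 0 in cells with Itgae and Cd8a and mostly above 0 elsewhere, and nuclear genes stand highest in cycling cells.

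Cells with Tcf7 showed the reverse pair of differences: a higher mitochondrial and a slightly lower nuclear share. Tcf7 encodes TCF-1, the transcription factor of naive, memory and stem-like T cells. The class held 908 and 904 cells, or 5.94% (5.57% to 6.33%) and 6.09% (5.71% to 6.48%), against 1.80% (0.219% to 6.36%) and 3.73% (1.38% to 7.93%) of cells with neutrophil markers, whose intervals include the share of all cells, so a Tcf7 UMI is not shown to mark expression by each cell. Of cells with epithelial markers, 0% (0% to 5.13%) and 0% (0% to 16.1%) were in the class. Of cells with erythroid markers, 1.85% (0.0469% to 9.89%) and 0% (0% to 11.6%) were. Mitochondrial genes took 3.51% and 3.39% of UMIs in cells with Tcf7, against 3.11% and 2.94% in other cells. Nuclear members took 2.18% and 2.08% in cells with Tcf7, against 2.30% and 2.22% in other cells, a mean log2 ratio of -0.09. Cycling cells made up 19.1% and 14.6% of cells with Tcf7, against 29.2% and 21.6% of other cells. Without cycling cells the nuclear ratio was -0.052, and without thinning it was -0.046.

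Of the 13 mitochondrial genes 10 rose, where 8.9% of the 11286 genes tested were called in either direction and 4.39% higher, with mt-Atp8, mt-Nd4l and mt-Nd6 not called. Of the genes not called, mt-Atp8 lay lower in both libraries, at a log2 fold change of -0.26. Genes of complex I led: mt-Nd5 had 464 and 449 CPM in cells with Tcf7, against 348 and 340 in other cells (log2 fold change 0.40, SE 0.05, adjusted p = 1.73e-12). For mt-Nd2 the levels were 1086 and 1106 in cells with Tcf7, against 872 and 859 in other cells (log2 fold change 0.33, SE 0.03, adjusted p = 1.49e-17). The most abundant core genes moved less, with log2 fold changes of 0.19 for mt-Co3, 0.16 for mt-Co2 and 0.11 for mt-Co1, which all passed the test.

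Of 76 nuclear subunits tested, 0 rose in cells with Tcf7 and 11 fell, where 4.5% of all genes were called lower. Without thinning 26 of 77 fell and 1 rose, and without cycling cells 8 fell and 1 rose. Of all genes, 1640 of 13309 were called lower without thinning and 348 of 10873 without cycling cells. To the 11 falls of the main fit complexes IV and V gave 4 each, complex I gave 2, complex III gave 1 and complex II gave 0. Cox5b, a zinc-binding subunit of complex IV, had 439 and 442 CPM in cells with Tcf7, against 551 and 519 in other cells (log2 fold change -0.29, SE 0.05, adjusted p = 6.90e-08). Its partner Cox5a had 561 and 545, against 688 and 635 in other cells (log2 fold change -0.27, SE 0.04, adjusted p = 4.53e-08). Further falls were in the complex I subunits Ndufa11 (-0.29) and Ndufa6 (-0.24) and in Atp5g3 (-0.25), another c subunit gene, as log2 fold changes. Of the glycolysis list 6 of 18 fell and 0 rose, and 68 of 82 cytosolic ribosomal protein genes rose. Neutrophil marker genes took 0.0314% and 0.0477% of UMIs in cells with Tcf7, against 0.172% and 0.281% in other cells, and erythroid marker genes 0.0701% and 0.00524%, against 0.00928% and 0.0160%; their part was not tested, and without cells that carry such markers 13 nuclear subunits fell and 11 mitochondrial genes rose. With DESeq2, 3 nuclear and 8 mitochondrial subunits were called, against 11 and 10 with edgeR. Of all 8879 genes DESeq2 called 142 higher and 116 lower. Without cells that carry other cell types' markers, edgeR called 499 of 11143 genes higher and 475 lower.

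Cycling cells differed in the nuclear genome's share. Nuclear members took 2.59% and 2.45% of UMIs in cycling cells, against 2.18% and 2.15% in other cells, a mean log2 ratio of 0.22. The mitochondrial share was 3.14% and 3.09% in cycling cells, against 3.13% and 2.94% in other cells. The class held 4371 and 3141 cells, or 28.6% (27.9% to 29.3%) and 21.1% (20.5% to 21.8%). It also held 61.3% and 30.4% of cells with neutrophil markers, 92.6% and 83.3% of the 54 and 30 cells with erythroid markers, and 60.0% and 42.9% of the 70 and 21 cells with epithelial markers. Nuclear members took 1.86% and 1.59% of UMIs in the neutrophil-marker cells, 3.52% and 3.32% in the erythroid-marker cells and 4.46% and 5.35% in the epithelial-marker cells. Without cells that carry another cell type's markers the mean log2 ratio of nuclear shares between cycling and other cells was 0.21.

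Of 77 nuclear subunits tested, 59 rose and 2 fell, where 29.3% of the 11363 genes tested were called in either direction and 17.5% higher, and the median log2 fold change was 0.24 against -0.01 over all genes. The rise spanned every complex: 26 of 36 in complex I, 2 of 4 in complex II, 7 of 8 in complex III, 11 of 14 in complex IV and 13 of 15 in complex V. Levels of 70 of the 77 were higher in cycling cells in both libraries, but the same count was not made over all genes tested. The 5 subunits with the largest rises among those of at least 50 CPM were Ndufa4, Ndufab1, Atp5k, Sdhd and Atp5b. Their start regions are shown so that genes that rose together can be read side by side, each from 110 bases before to 10 bases after the outermost annotated start. They come from RefSeq sequence of build GRCm38.p6, and capitals mark overlapping matches, 1 on each strand, to the NRF1 motif core GCGCATGC, named for a nuclear respiratory factor that binds promoters of many respiratory genes.
Ndufa4 (chr6:11907488-11907607, minus strand): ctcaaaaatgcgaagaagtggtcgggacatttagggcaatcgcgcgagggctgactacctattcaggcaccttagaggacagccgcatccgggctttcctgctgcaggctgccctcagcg
Ndufab1 (chr7:122101877-122101996, minus strand): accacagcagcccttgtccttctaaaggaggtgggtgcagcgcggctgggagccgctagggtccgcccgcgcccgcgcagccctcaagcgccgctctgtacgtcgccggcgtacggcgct
Atp5k (chr5:108434439-108434558, minus strand): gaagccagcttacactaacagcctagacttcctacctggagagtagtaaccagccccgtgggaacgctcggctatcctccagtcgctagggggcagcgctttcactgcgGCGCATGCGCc
Sdhd (chr9:50603840-50603959, minus strand): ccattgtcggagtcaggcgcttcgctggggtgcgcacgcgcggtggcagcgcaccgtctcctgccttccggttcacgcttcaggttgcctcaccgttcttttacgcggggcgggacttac
Atp5b (chr10:128083163-128083282, plus strand): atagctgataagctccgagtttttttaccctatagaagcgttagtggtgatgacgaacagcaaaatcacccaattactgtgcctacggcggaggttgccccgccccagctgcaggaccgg

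In these windows the motif occurs in Atp5k alone. Promoters of 300 bases (250 before to 50 after the RefSeq start) were matched for 67 of the 82 nuclear subunit symbols, and 3 motifs were searched in them on both strands. The NRF1 motif core was in 14.9% of member promoters and in 3.05% of all 27025 genes with a promoter. CCGGAAGT, an ETS family motif, was in 7.46% of member promoters and in 4.31% of all, and AAGATGGC, a YY1 motif core, was in 14.9% of member promoters and in 3.19% of all. These are letter matches in fixed windows and do not show binding.

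Ndufa4 had 813 and 670 CPM in cycling cells, against 548 and 510 in other cells (log2 fold change 0.51, SE 0.05, adjusted p = 2.86e-09). Ndufab1, the mitochondrial acyl carrier protein that is also a complex I subunit, had 165 and 161 in cycling cells, against 118 and 117 in other cells (log2 fold change 0.49, SE 0.06, adjusted p = 1.86e-07). Atp5k, the membrane subunit e of ATP synthase, had 315 and 329, against 217 and 249 in other cells (log2 fold change 0.49, SE 0.05, adjusted p = 3.00e-08). In all of these the groups did not overlap. Sdhd had 82.1 and 75.4 in cycling cells, against 58.9 and 55.4 in other cells (log2 fold change 0.49, SE 0.08, adjusted p = 1.52e-05). Atp5b, the catalytic beta subunit, had 328 and 317, against 233 and 241 in other cells (log2 fold change 0.47, SE 0.05, adjusted p = 5.33e-08).

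The nuclear subunits of highest level, Cox8a, Atp5e, Cox4i1 and Uqcrh, took smaller part in this rise. The next in level, Cox6c, Cox5a and Cox7c, were all called higher. Cox8a rose by 0.20 (log2 fold change), while Cox4i1, Atp5e and Atp5l had log2 fold changes of 0.12, 0.11 and 0.12 that did not pass the test, and Ndufa13 had 0.00. Uqcrh fell, with 774 CPM in cycling cells of both libraries, against 850 and 854 in other cells (log2 fold change -0.12, SE 0.04, adjusted p = 0.0445); without thinning its log2 fold change was 0.00. The other fall and the largest rise were in second isoforms at a few CPM, Cox6a2 (-2.28) and Cox6b2 (1.45), and the Cox6a2 fall rested on 2 and 1 UMIs in cycling cells. Without thinning edgeR called 71 of 77 nuclear subunits higher and 0 lower, with 71 at an unadjusted p under 0.05 and a lowest log2 fold change of -0.06. Of all 13230 genes tested in that setting, 3266 were called higher and 2474 lower. Of the 13 mitochondrial genes 3 rose, namely mt-Cytb (0.18), the cytochrome b gene of complex III, mt-Nd1 (0.12) and mt-Co3 (0.10), and mt-Co3 had -0.06 without thinning, where 0 mitochondrial genes rose and 2 fell.

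Other mitochondrial gene groups of nuclear origin differed in how many members rose. Of 78 mitochondrial ribosomal protein genes 48 rose, of 6 carriers and channels 6, and of 16 TCA cycle genes 6, and 0 of each fell. Of subunits and cofactors outside the naming rule, 4 of 5 rose, among them Cycs (0.59), cytochrome c, and Cyc1 (0.48), cytochrome c1. Nearer to the 17.5% of all genes called higher were the assembly factors outside the naming rule, with 6 of 36 higher and 1 lower, mitochondrial import, with 6 of 23 higher and 0 lower, and mitochondrial transcription and its regulators, with 4 of 20 higher, 0 lower and a median log2 fold change of 0.03. These 4 were Tfam (0.49), which packages mitochondrial DNA and activates its transcription, Slirp (0.30), Nrf1 (0.27) and Ssbp1 (0.27). Glycolysis was mixed, with 7 of 18 higher and 2 lower.

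Without the mitochondrial limit the picture of the organelle's own genes changed. The log2 ratio of mitochondrial shares was then 0.06 and 0.41 in replicates 1 and 2, and 11 of 13 mitochondrial genes were called higher, against 3 with the limit. Of cells above the limit 39.2% and 44.9% were cycling cells, against 28.6% and 21.1% of cells within it. Neutrophil marker genes took 0.274% and 0.419% of UMIs in cycling cells, against 0.120% and 0.227% in other cells, and 59 nuclear subunits also rose without cells that carry another cell type's markers. Without the shared barcodes 54 nuclear subunits rose, and without the mitochondrial limit 46 of 77 rose and 0 fell. Of all genes, 1667 of 11333 were called higher without the shared barcodes and 1877 of 11470 without the limit. Without cells that carry other cell types' markers 1933 of 11151 were called higher. Median depth before thinning was 2925 and 4994 UMIs in cycling cells, against 3178 and 3733 in other cells, and its part was not tested.

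**Figure D4:**
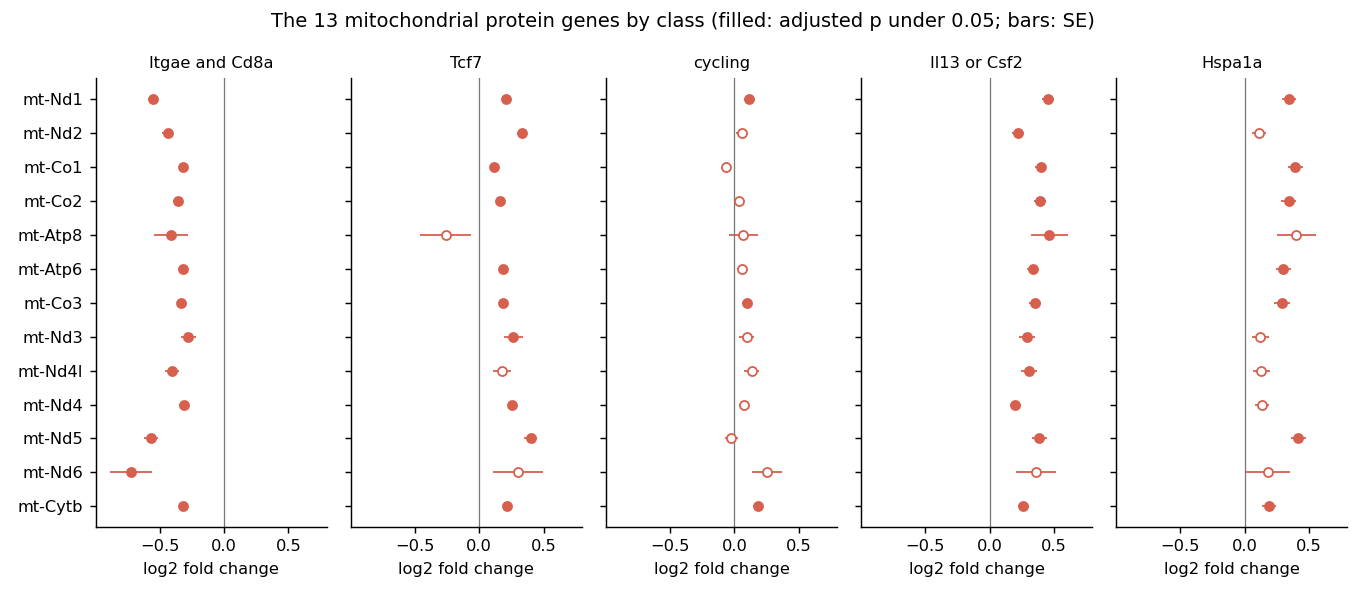
Log2 fold change, class over all other cells, of each of the 13 mitochondrial protein genes in their order along the mitochondrial genome; bars are SE and filled points have an adjusted p under 0.05. All 13 lie below 0 in cells with Itgae and Cd8a, and 12 are filled above 0 in cells with Il13 or Csf2.

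Cells with Il13 or Csf2 had a higher mitochondrial share. Il13 encodes a type 2 cytokine and Csf2 encodes GM-CSF, a cytokine that acts on myeloid cells. It held 1666 and 1395 cells, or 10.9% (10.4% to 11.4%) and 9.39% (8.93% to 9.87%), against 3.60% (0.990% to 8.97%) and 6.21% (3.02% to 11.1%) of cells with neutrophil markers. In replicate 2 that interval includes the share of all cells, so a UMI is not shown there to mark expression by each cell. Mitochondrial genes took 3.68% and 3.71% of UMIs in the class, against 3.06% and 2.89% in other cells. Nuclear members took 2.23% and 2.12%, against 2.30% and 2.23% in other cells.

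Of the 13 mitochondrial genes 12 rose, where 16.2% of the 11399 genes tested were called in either direction and 9.83% higher, and mt-Nd6 (log2 fold change 0.36, SE 0.16, adjusted p = 0.129) was not called. The log2 fold changes of the 12 ran from 0.20 for mt-Nd4 and 0.22 for mt-Nd2 to 0.46 for mt-Nd1 and 0.47 for mt-Atp8, so that genes of complex I lay at both ends of the range. For mt-Co2 the levels were 5837 and 6189 CPM in the class, against 4763 and 4646 in other cells (log2 fold change 0.39, SE 0.04, adjusted p = 2.18e-08). For mt-Nd1 they were 1916 and 2074 in the class, against 1498 and 1490 in other cells (log2 fold change 0.46, SE 0.05, adjusted p = 1.37e-09). The groups did not overlap in either gene.

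Among 76 nuclear subunits 1 rose and 7 fell, where 6.33% of all genes were called lower. The rise was Uqcrq (0.21), a small subunit of complex III. Ndufa3, an accessory subunit of complex I, had 243 and 271 CPM in the class, against 316 and 322 in other cells (log2 fold change -0.28, SE 0.06, adjusted p = 0.000613). Falls were also seen in Ndufs4 (-0.27) and Ndufs7 (-0.23) of complex I, Ndufa4 (-0.26) of complex IV, Uqcrc1 (-0.24) of complex III and Sdhb (-0.22) of complex II, as log2 fold changes. Glycolysis genes rose in 15 of 18 cases and fell in 0, with a median log2 fold change of 0.55, led by Hk2 (1.54), hexokinase 2, and Tpi1 (1.07), triose phosphate isomerase. Neutrophil marker genes took 0.0308% and 0.0974% of UMIs in the class, against 0.180% and 0.285% in other cells, and 12 mitochondrial genes also rose without cells that carry such markers. With DESeq2, 0 nuclear subunits rose (1 with edgeR), 2 fell and 9 mitochondrial genes rose, and without thinning 0 nuclear subunits rose, 2 fell and 8 mitochondrial genes rose. In a second random thinning 0 nuclear subunits rose, 3 fell and 13 mitochondrial genes rose. At 1000 UMIs per cell 0 nuclear subunits rose, 2 fell and 7 mitochondrial genes rose. The nuclear calls in this class thus varied with the random draw. Without the mitochondrial limit 13 mitochondrial genes rose, where 1166 of 11410 genes were called higher. Of all genes, DESeq2 called 427 of 8305 higher and 151 lower. Without thinning edgeR called 1104 of 13321 higher and 736 lower. The second thinning gave 1018 of 11396 higher and 668 lower. At 1000 UMIs per cell 763 of 10953 were higher and 420 lower.

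Cells with an Hspa1a UMI gave a similar pair of differences. Hspa1a encodes the inducible chaperone Hsp70, which rises with heat and other stress, tissue digestion included. The class held 1397 and 1181 cells, or 9.14% (8.69% to 9.61%) and 7.95% (7.52% to 8.40%). Among cells with neutrophil markers the shares were 12.6% (7.07% to 20.3%) and 9.94% (5.79% to 15.6%), and these intervals include the shares of all cells. Among cells with epithelial markers they were 0% (0% to 5.13%) and 0% (0% to 16.1%). For erythroid markers they were 20.4% (10.6% to 33.5%) and 0% (0% to 11.6%). As these backgrounds differ, a UMI is not read as expression by the cell. Mitochondrial genes took 3.72% and 3.76% of UMIs in the class, against 3.07% and 2.90% in other cells. Nuclear members took 2.21% and 2.06%, against 2.30% and 2.23% in other cells.

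Of the mitochondrial genes 7 of 13 rose, where 13% of the 11501 genes tested were called in either direction and 6.71% higher. They were all 3 of complex IV, mt-Nd1, mt-Nd5, mt-Cytb and mt-Atp6. Without the mitochondrial limit 11 of 13 rose, where 834 of 11608 genes were called higher. For mt-Co1 the levels were 8266 and 8464 CPM in the class, against 6401 and 6113 in other cells (log2 fold change 0.39, SE 0.06, adjusted p = 5.67e-08). Of 77 nuclear subunits 0 rose and 12 fell, where 6.3% of all genes were called lower, 7 of them in complex I. Ndufa4 had 502 and 447, against 635 and 552 in other cells (log2 fold change -0.35, SE 0.06, adjusted p = 8.17e-07). Ndufa3 (-0.30), Uqcrc1 (-0.29) and Sdhb (-0.28) also fell.

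These calls were not made without the thinning. Without thinning, 0 members were called by edgeR, with 41 genes called in all and 2678 at an unadjusted p under 0.05, and the log2 ratio of nuclear shares was -0.04 and 0.13 in replicates 1 and 2. The class also changed in that setting, to 13.1% and 15.4% of all kept cells, shallower ones included. Which of these changes mattered was not tested. Cells with Hspa1a also held more cells with Il13 or Csf2, 21.7% and 14.4%, against 9.81% and 8.96% of other cells. Median depth before thinning was 2690 and 3366 UMIs in the class, against 3179 and 3905 in other cells, and its part in the result was not tested.

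**Figure D5:**
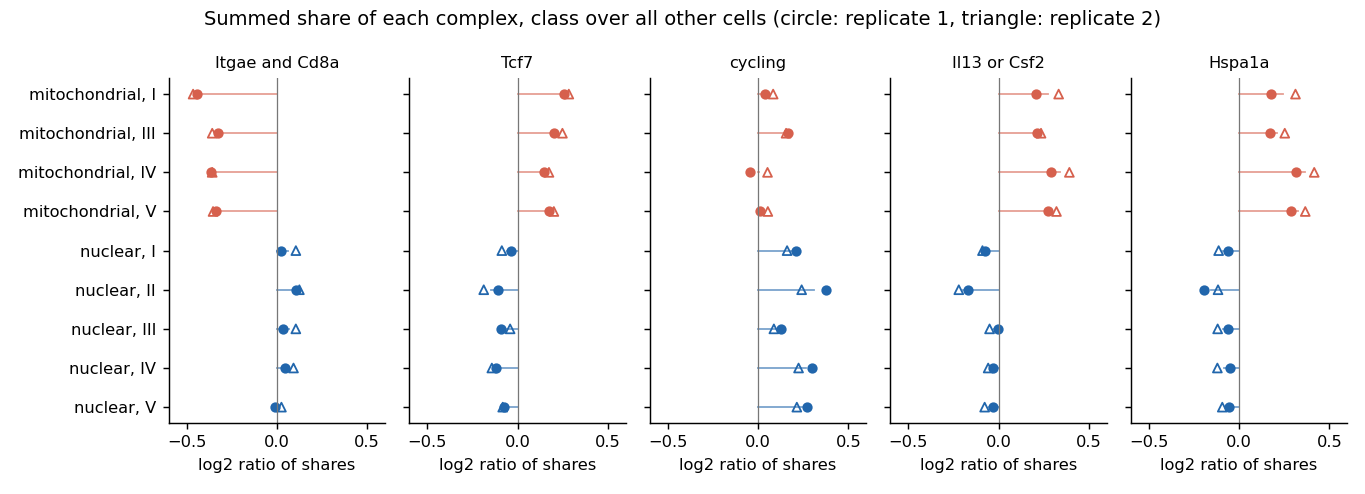
Log2 ratio of the summed UMI share of each complex, class over all other cells, for mitochondrial (red) and nuclear (blue) genes; circles are replicate 1, triangles replicate 2, and lines run from 0 to the mean. In cells with Itgae and Cd8a the mitochondrial genes of complexes I, III, IV and V lie between -0.46 and -0.33, while nuclear genes of every complex lie between -0.01 and 0.12.

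In the sets given here, the complexes shared a direction and differed in size. That was not so in every set. Nuclear genes in cells with Il13 or Csf2 had a median log2 fold change of 0.03 in complex IV and -0.09 in complex II. In cells with Itgae and Cd8a the mean log2 ratio of mitochondrial shares was -0.45 for complex I, -0.34 for complex III, -0.36 for complex IV and -0.35 for complex V. In cells with Tcf7 these were 0.27, 0.23, 0.16 and 0.19, and in cells with Il13 or Csf2 they were 0.27, 0.22, 0.34 and 0.30. Complex I thus stood furthest from 0 in the classes of Itgae and Cd8a and of Tcf7, and complex IV in that of Il13 or Csf2. For nuclear genes in cycling cells the ratios were 0.19, 0.31, 0.11, 0.26 and 0.24 for complexes I to V. Differences between complexes were not tested.

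Some nuclear subunits were called in opposite directions in different classes. Ndufa3 and Ndufs7 rose in cells with Itgae and Cd8a and in cycling cells and fell in cells with Il13 or Csf2 and in cells with Hspa1a. Ndufa4 rose in cycling cells and fell in cells with Itgae and Cd8a, with Il13 or Csf2 and with Hspa1a. Several of these calls depended on the thinning. Without it Ndufa4 had a log2 fold change of 0.043 in cells with Itgae and Cd8a and was not called. Of all members, 0 were then called in cells with Hspa1a. In cells with Il13 or Csf2 the nuclear falls numbered 7, but 3 in a second random thinning and 2 without thinning. The 5 comparisons use the same cells in different splits, so their calls are not independent, and the differences between them were not tested.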

How the data were processed

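Gene expression was measured by droplet sequencing (10x Genomics 3′ v3) in 2 libraries of sorted T cells. The deposited values are counts, raw and unnormalized UMI numbers per barcode, made by the authors with Cell Ranger 3.1.0 against mm10, per the submitters' processing notes. The matrices hold 6794880 barcodes, so cells were selected here. The 2 hashtag libraries were not used.

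Each kept cell was thinned to 1500 UMIs (seed 20), and counts were summed per library and class, 4 sums a comparison, with the genes that define the class left out. The main test was edgeR 4.0.16 (R 4.3.3; TMM, filterByExpr, quasi-likelihood F test) with library as a block, since both classes of a library come from the same pool; 1 residual degree of freedom remains. SE is the log2 fold change over the square root of F. DESeq2 1.42.0 was an alternative. Sums and figures were made in Python 3.11.15 with pandas 2.3.3, numpy 2.4.6 and scipy 1.17.1. Scripts were tested on simulated data. P-values rest on how far the class difference varied between these 2 libraries, not on the spread between the libraries themselves. Each gene's variance was drawn mostly from the other genes, with median prior degrees of freedom of 19.6 to 472 across the comparisons. No doublet caller was run.

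Members, lists and classes were chosen with earlier results of these data known. Named in each comparison were the 13 mitochondrial genes, up to 5 largest rises and 5 largest falls among called nuclear subunits of at least 50 CPM, the 2 highest nuclear subunits of each complex and the second isoforms, whose changes are given where called; any further called gene was picked with its values in view. Results of 1 member that the rule names are not reported here. Gene coordinates are those of GENCODE on mm10. Alternatives changed the size factors, low-count filter, block, tool, thinning, mitochondrial limit, other cell types' markers, cycling cells and class definition.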

Additional observations from a re-analysis of the deposited data

How the results depend on the processing

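Members called (nuclear, mitochondrial and assembly together) in the classes of Itgae and Cd8a, Tcf7, cycling, Il13 or Csf2, and Hspa1a numbered 36, 21, 66, 22 and 19. With no replicate block they numbered 18, 2, 35, 7 and 5, and with DESeq2 17, 11, 37, 11 and 10. With mitochondrial genes left out they numbered 22, 11, 10 and 11 in the classes other than cycling, since 13 members were then not tested; of nuclear subunits 16 rather than 17 then rose with Itgae and Cd8a and 11 rather than 12 fell with Hspa1a. Without thinning they numbered 70, 41, 11 and 0 in these 4 classes, with 1000 UMIs per cell 10 (Il13 or Csf2) and 12 (Hspa1a), and among cells of at least 3000 UMIs 14 and 12. Calls over all genes, in the order of the 5 classes above, moved with the setting as well. The main fit called 1578, 496, 1991, 1120 and 772 genes higher and 1896, 508, 1336, 721 and 724 lower. With no block these were 903, 84, 1231, 600 and 235 higher and 1242, 92, 418, 223 and 91 lower. With DESeq2 they were 502, 142, 879, 427 and 200 higher and 701, 116, 251, 151 and 125 lower. Genes tested numbered 11274 to 11501 with edgeR and 7933 to 11363 with DESeq2. Without thinning 3496, 1473, 1104 and 41 genes were higher in the 4 classes other than cycling, and 3785, 1640, 736 and 0 lower. Genes tested then numbered 13309 to 13478. For Il13 or Csf2 and for Hspa1a, 763 and 559 genes were higher and 420 and 382 lower at 1000 UMIs. Among cells of at least 3000 UMIs these were 905 and 575 higher and 570 and 427 lower. Leaving out 1 library leaves no residual degrees of freedom, so counts could not be fitted.

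The mean log2 ratio of mitochondrial shares for Itgae and Cd8a was -0.37 and became -0.39 without thinning, -0.38 at 1000 UMIs, -0.40 in a second random thinning, -0.51 without the mitochondrial limit, -0.38 without other cell types' markers, -0.40 without cycling cells, -0.42 under the other class definition, -0.38 without shared barcodes and -0.35 in cells of at least 3000 UMIs; its spread between libraries was 0.00375. For Tcf7 it was 0.19 and became 0.16 at 1000 UMIs, 0.13 without the mitochondrial limit and 0.30 in cells of at least 3000 UMIs. In cycling cells it was 0.04 and became -0.091 without thinning and 0.23 without the limit. For Il13 or Csf2 it was 0.31 and became 0.21 without thinning, 0.39 without the limit and 0.43 under the other definition, and for Hspa1a it was 0.33 and became 0.44 without the limit and 0.46 under the other definition.

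The nuclear ratio for Itgae and Cd8a was 0.05 and became 0.10 without thinning and 0.0057 in cells of at least 3000 UMIs. For Tcf7 it was -0.09 and became -0.046 without thinning and -0.052 without cycling cells. In cycling cells it was 0.22 and became 0.28 without thinning and 0.30 under the other definition. For Hspa1a it was -0.08 and became 0.044 without thinning, -0.12 at 1000 UMIs and -0.14 under the other definition. Without thinning 4 named genes turned sign, and none of the 4 was then called: Ndufa4 in Itgae and Cd8a (0.043), Uqcrh (0.0031) and mt-Co3 (-0.058) in cycling cells, and Uqcrc1 in Hspa1a (0.075). The cause of these changes was not tested. The settings on shared barcodes and on the 3000 UMI minimum were chosen after seeing the data. Depth limits mt-Atp8, mt-Nd6 and the second isoforms most.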
